A study of Mus musculus with 4 samples.

Results

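Ribosome biogenesis and nucleolar factors are the proteins that transcribe, modify, cut and fold ribosomal RNA in the nucleolus and load it with ribosomal proteins. The genes described here were a list of 40 named nucleolar and ribosome assembly genes, matched by symbol to the Ensembl identifiers of the count table, which held 55573 genes in all. All 40 were found, and 39 passed the filter on low counts and were tested. The libraries came from RNA immunoprecipitation sequencing (RIP-seq), in which RNA held on beads by an antibody is recovered and sequenced. The RNA came from Cd31+ cells, sorted from the caudal portion of wild-type C57BL/6 mouse embryos at E10.0. Cd31, encoded by Pecam1, marks endothelium and part of the blood lineage. An antibody against RUNX1, a transcription factor required for the first blood stem cells to emerge from endothelium, was used for 2 libraries, and IgG, the control for unspecific recovery, for the other 2. All 4 libraries shared strain, genotype, stage and tissue, so that the antibody is the only labelled difference. The comparison asked which RNAs the Runx1 antibody brought down beyond the IgG background. Whether replicates derive from separate embryos or sorts is not stated, so a p-value here reflects variation among these libraries alone, and that variation may be technical. Input RNA was not analysed here.

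Ribosome assembly begins when RNA polymerase I copies the ribosomal RNA genes into a long precursor. Small nucleolar RNAs (snoRNAs) then guide enzymes to it. Those of the box C/D class direct 2′-O-methylation by fibrillarin, and those of the box H/ACA class direct pseudouridylation by dyskerin. The small subunit processome folds and cleaves the part that becomes the small subunit, while a separate series of factors builds the large subunit. Fast-growing embryonic cells make many ribosomes and express these genes broadly, so that none of them marks endothelium or blood.

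Sequencing gave 1675488 and 1887301 gene counts for Runx1 replicates 1 and 2, and 3843318 and 2482045 for the IgG pair. Levels below are in CPM, the counts of a gene per 1000000 of these totals, in the order replicate 1 and replicate 2, and 3 counts correspond to between 0.781 and 1.79 CPM. Pecam1, which encodes CD31, was detected at 93.1 and 103 CPM in the Runx1 libraries against 99.9 and 79.4 in the IgG libraries. Cdh5, the endothelial cadherin, stood at 100 and 80.5 against 88.5 and 66.1 CPM. The 8 endothelial markers read below summed to 1452 and 1180.5 against 1501 and 1391 CPM. Kdr alone, at 836 and 663 against 863 and 873 CPM, made up most of each sum. The 6 mesenchymal markers summed to 586 and 623 against 731 and 725 CPM, with Pdgfra at 382 and 393 against 473 and 430. No unsorted library was compared, so the purity of the sort was not tested. Runx1 RNA itself stood at 31.6 and 32.9 CPM against 18.2 and 20.1, and was not called (log2 fold change 0.72 ± 0.57, edgeR adjusted p = 0.647). Cbfb, which encodes its DNA-binding partner, stood at 150 and 162 against 346 and 351 CPM. It was called lower (-1.19 ± 0.19, edgeR adjusted p = 0.0432). Directions below are relative to the typical gene. Synthetic spike-in RNAs stood at 356 and 378 CPM in the Runx1 libraries against 129 and 175 CPM in the IgG libraries, relative to gene counts. Scaling the libraries to them moved the median tested gene from 0.027 to -1.25 (log2), and 38 of the 39 members were then below 0, with 14 called lower, Ncl among them (edgeR adjusted p = 0.0467). Rrp9 at 0.05 was the exception. Under this scaling 3914 of all 12401 tested genes were called lower, so such calls were not particular to the members.

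A set of snoRNA genes lies within the members themselves and shows the RNA side of the pathway. Inside 6 of the 40 members (Ncl, Nop56, Nop58, Dkc1, Wdr43 and Gnl3) the GENCODE M21 annotation places 19 snoRNA genes on the same strand. Their sequences are short, as these examples from hosts with the largest counts show, in the 5′ to 3′ direction, with the C box (TGATGA) and D box (CTGA) that bind the box C/D proteins, or the ACA box of an H/ACA snoRNA, in capitals.
Snord82, inside Ncl (chr1:86356261-86356330, GRCm38, minus strand): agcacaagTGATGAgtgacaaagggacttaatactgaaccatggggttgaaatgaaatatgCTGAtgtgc
Snord110, inside Nop56 (chr2:130275506-130275573, GRCm38, plus strand): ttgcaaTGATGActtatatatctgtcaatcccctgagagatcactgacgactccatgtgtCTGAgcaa
Snord11, inside Nop58 (chr1:59704790-59704873, GRCm38, plus strand): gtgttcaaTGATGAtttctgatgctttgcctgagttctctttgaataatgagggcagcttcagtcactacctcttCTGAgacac
Snora75, inside Ncl (chr1:86351169-86351301, GRCm38, minus strand): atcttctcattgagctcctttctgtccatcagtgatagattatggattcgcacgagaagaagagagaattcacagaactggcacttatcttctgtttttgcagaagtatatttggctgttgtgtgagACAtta
Of these 19 snoRNA genes, 18 had 0 counts in all 4 libraries. Only Snord92, inside Wdr43, had any, with 0 and 4 counts under the Runx1 antibody and 0 and 1 under IgG. Over all 1507 snoRNA genes of the table, 142 (9.42%) had at least 1 count, against 1 of 19 (5.26%) inside the members. The values of these hosts below are thus counts given to the host gene, beside at most 5 counts for the snoRNA genes they carry. All snoRNA genes of the table together held 23380 counts. Whether RNAs of this size were recovered was not tested.

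Ncl, which encodes nucleolin, the abundant nucleolar protein that binds nascent ribosomal RNA and its chromatin, was the only member that rose in the edgeR test. It stood at 4299 and 4387 CPM in the Runx1 libraries against 2898 and 2953 CPM in the IgG libraries. Both Runx1 libraries lay well above both IgG libraries, and each pair was tightly spaced (4343 ± 62.3 against 2926 ± 38.8 CPM, mean ± SD, n = 2 and 2). The change was 1.46-fold, a log2 fold change of 0.54 ± 0.072 (SE, edgeR adjusted p = 0.0240), and turned to -0.73 under the spike-in scaling, where it was called lower. With each library left out in turn it stayed between 0.50 and 0.54. With the replicate number added to the edgeR model it was again 0.54 but was not called (edgeR adjusted p = 0.0753). Of the 12401 genes tested, 38 (0.306%) were higher and 42 (0.339%) were lower at an adjusted p under 0.05, beside 1 of 39 members higher (Ncl) and 0 lower. At an unadjusted p under 0.05, 6 of 39 members were higher and 0 lower, where 6.88% of all genes were higher and 7.35% lower. With DESeq2, 2 members (Ncl and Mybbp1a) were higher and 0 lower, where 1.98% and 2.77% of all genes were. It gave no adjusted p for 10 of the 39. Limma-voom called Ncl alone higher and 0 lower (0.823% and 0.968% of all genes). Ncl lies on chromosome 1 (86344719 to 86359400, minus strand), and a Snora75 annotation falls wholly within an exon of one of its transcripts.

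The 40 members together made up 0.767% and 0.837% of the Runx1 libraries' gene counts and 0.582% and 0.621% of those of IgG. In CPM the sums were 7667 and 8375 against 5819 and 6213, so that the groups did not overlap (8021 ± 501 against 6016 ± 279, mean ± SD, n = 2 and 2). The exact permutation test of the ratio, 1.33, gave a two-sided p of 0.333, the smallest that 2 against 2 libraries allow. Under the spike-in scaling the log2 ratio went from 0.41 to -0.89. Ncl alone supplied 56.1% and 52.4% of the members' counts in the Runx1 libraries against 49.8% and 47.5% in the IgG libraries. Without Ncl the sums were 3368 and 3988 CPM against 2921 and 3260, closer but still apart, a ratio of 1.19 (exact permutation p = 0.333, two-sided).

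Taken gene by gene, the members leaned toward the Runx1 antibody and did not move as a block. Of the 39 tested, 27 had a log2 fold change above 0 and 12 below, where 51.5% of all tested genes were above 0. Their median was 0.42, beside 0.027 for all tested genes, and -0.86 under the spike-in scaling (0.39 above the median of all tested genes there). It was 0.22 without Runx1 replicate 2, 0.26 without IgG replicate 1, and 0.21 once transcript length and GC content were corrected for. Both Runx1 libraries were above both IgG libraries for 16 of 39 members and below for 6, and the remaining 17 overlapped. Over all tested genes 24.1% lay above in this way and 21.3% below. No member other than Ncl passed the adjusted test, so the values that follow for the others describe these 4 libraries.

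**Figure D1:**
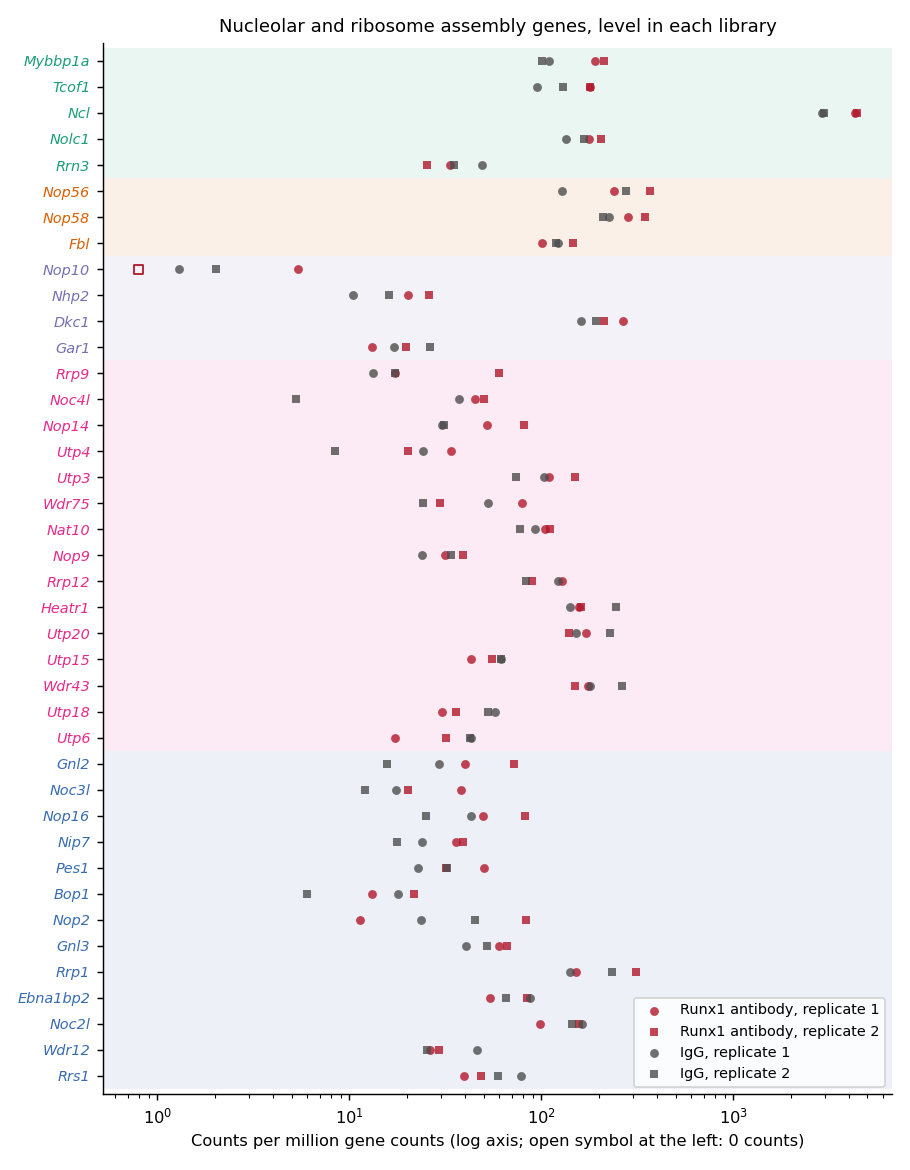
Level of each of the 40 genes in each library, in CPM on a log axis, with genes coloured and shaded by role and ordered by fold change within a role. Ncl sits far to the right at 2898 to 4387 CPM with its antibody groups apart, while most others lie between 10 and 400 CPM with overlapping or nearly touching groups, and Nop10 has 0 counts in Runx1 replicate 2 (open symbol).

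Among the genes that act on ribosomal RNA transcription and the nucleolar phosphoproteins, 4 of 5 were above 0, with a median of 0.54. Mybbp1a, a nucleolar protein that binds MYB and represses ribosomal RNA transcription, stood at 189 and 211 CPM in the Runx1 libraries against 110 and 101 in the IgG libraries. Its groups were well apart (log2 fold change 0.90 ± 0.24, edgeR adjusted p = 0.160, and DESeq2 adjusted p = 0.0284). It had the smallest p of any member after Ncl, and lies on chromosome 11 (72441355 to 72451768, plus strand). Tcof1, which encodes treacle, a scaffold for RNA polymerase I, stood at 179 and 179 CPM against 94.7 and 130. Here the Runx1 libraries agreed closely and the IgG pair was wider (0.64 ± 0.27, edgeR adjusted p = 0.326). Nolc1, which encodes a chaperone of snoRNPs that binds treacle, stood at 176 and 205 against 134 and 167 CPM, separated by a narrow margin (0.31 ± 0.25, edgeR adjusted p = 0.644). Rrn3, the factor that recruits RNA polymerase I to the promoter, was the exception at 33.4 and 25.4 against 49.2 and 35.1 CPM. Its Runx1 libraries were the lower pair (-0.55 ± 0.50, edgeR adjusted p = 0.700). Rrn3 is thus the 1 member of this role on the IgG side, and it had under 60 counts in each Runx1 library.

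The snoRNP core proteins bind the guide RNAs shown above. Of the box C/D proteins, Nop58 stood at 284 and 345 CPM in the Runx1 libraries against 226 and 210 in the IgG libraries, with no overlap (log2 fold change 0.50 ± 0.20, edgeR adjusted p = 0.307). Its partner Nop56 stood at 239 and 369 against 127 and 276 CPM. The IgG libraries differed from each other by more than the groups did, and the value was 0.57 ± 0.36 (edgeR adjusted p = 0.543). It was 1.22 without IgG replicate 2, where it was called (edgeR adjusted p = 0.0441), and 0.10 without IgG replicate 1. It was 0.82 without Runx1 replicate 1 and 0.19 without Runx1 replicate 2. Fbl, the methyltransferase fibrillarin itself, stood at 101 and 147 against 122 and 119 CPM, so that IgG lay inside the Runx1 range (0.01 ± 0.30, edgeR adjusted p = 0.995). The difference between Fbl and its partners was not tested. Of the box H/ACA proteins, Dkc1, the pseudouridine synthase dyskerin, stood at 265 and 211 against 160 and 193 CPM, with the Runx1 libraries higher (0.40 ± 0.23, edgeR adjusted p = 0.489). The 3 small partners of dyskerin had few counts. Nhp2 stood at 20.3 and 26 against 10.4 and 16.1 CPM (0.78 ± 0.66), and Gar1 at 13.1 and 19.6 against 17.2 and 26.2 (-0.43 ± 0.66). Nop10, below the filter, had 9 and 0 counts against 5 and 5, and was not tested.

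Reads of some members could also match copies elsewhere in the genome. Processed pseudogenes carry near-identical stretches (at least 200 bases at 95% identity or more) of Nop56 at 4 places. Of these, Gm9432 had 11 and 7 counts against 0 and 1 in the IgG libraries, AC122861.1 had 16 and 14 against 14 and 21, and Gm27219 6 and 8 against 4 and 7. Such numbers are small beside the 400 and 697 against 490 and 685 counts of Nop56. Fbl has a pseudogene, Gm5812, with 0 counts in every library, which lies within the bounds of Tulp4 on the other strand. Tulp4 itself shares a stretch of 690 bases with Fbl in antisense. It had 667 and 691 counts against 2157 and 1561, beside 169 and 277 against 470 and 296 for Fbl. How many of these counts came from the shared stretch was not tested. The pseudogenes of Pes1 and Wdr12 also had 0 counts in every library, as had Vmn1r88, which spans that of Wdr12. Stretches near the lower limit of length are shared by Wdr12 and 4 other genes, of which Tmod3 had the most counts. Exons of 15 members overlap a gene on the opposite strand, among them Mybbp1a (with Spns2), Nop56 (with Idh3b) and Dkc1 (with Mpp1), and without a stated strand setting such reads cannot be told apart. Ncl has no such overlap and no near-identical copy.

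The 15 members of the small subunit processome and small subunit assembly spread the most, from -0.82 to 1.32, with 9 above 0, 6 below and a median of 0.27. At the lower end stood Utp6 and Utp18, which belong to the UTP-B module. Of the 4 UTP-B genes outside the members, Tbl3 stood at 1.33 ± 0.62, Wdr36 at 1.06 ± 0.44 and Pwp2 at 0.27 ± 0.44. Wdr3 was below 0 as well, at -0.28 ± 0.71, with a wide Runx1 pair (14.3 and 88.5 CPM against 75.7 and 47.1). None of the 4 was called by edgeR. Utp18 stood at 30.4 and 36.0 CPM in the Runx1 libraries against 57.2 and 52.8 in the IgG libraries, a clear gap between the pairs (log2 fold change -0.75 ± 0.44, edgeR adjusted p = 0.499). Utp6 stood at 17.3 and 31.8 against 42.9 and 42.7 CPM, again with the Runx1 libraries below (-0.82 ± 0.54, edgeR adjusted p = 0.556). The UTP-A module, which binds the nascent precursor first and links its transcription to processing, was below 0 for 3 of its 5 genes on the list. Wdr43 stood at 175 and 150 against 180 and 262 CPM (-0.47 ± 0.26, edgeR adjusted p = 0.466), Runx1 being lower by a small margin. Utp15 stood at 43.0 and 55.1 against 61.9 and 61.6 CPM (-0.36 ± 0.40). Heatr1, the large scaffold of the module, stood at 156 and 161 against 142 and 245 CPM. Only IgG replicate 2 was high, and without it the value of Heatr1 was 0.12 in place of -0.31. The other 2 of this module, Wdr75 (0.46 ± 0.59) and Utp4 (0.69 ± 0.72), were above 0 with wide errors. Wdr75 was -0.43 without Runx1 replicate 1, and Utp4 was 0.12 without IgG replicate 2.

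Utp20, a very long helical-repeat protein of the same particle, stood at 171 and 139 CPM against 152 and 229, overlapping (-0.33 ± 0.27). At the upper end stood Rrp9, the U3 snoRNA-binding protein, with 17.3 and 60.4 CPM in the Runx1 libraries against 13.3 and 17.3 in the IgG libraries. That value (1.32 ± 0.71, edgeR adjusted p = 0.457) came from Runx1 replicate 2, and without that library it was 0.13. Nop14 and Noc4l, which bind each other in the small subunit precursor, were also in the upper part. Nop14 stood at 51.9 and 81.6 against 30.4 and 31.0 CPM, with a close IgG pair below both Runx1 libraries (1.09 ± 0.45, edgeR adjusted p = 0.317). Noc4l stood at 45.4 and 50.3 against 37.2 and 5.24 CPM. Here IgG replicate 2 was low, and the value of 1.13 ± 0.79 was 0.32 without it and 3.14 without IgG replicate 1. Utp3 stood at 109 and 149 against 104 and 73.7 CPM (0.51 ± 0.32, edgeR adjusted p = 0.544), with the lower Runx1 library just above the higher IgG library. Nat10, the acetyltransferase of small subunit ribosomal RNA, had 0.31 ± 0.31, Nop9 0.27 ± 0.52, and Rrp12, an export and processing factor, 0.05 ± 0.34.

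**Figure D2:**
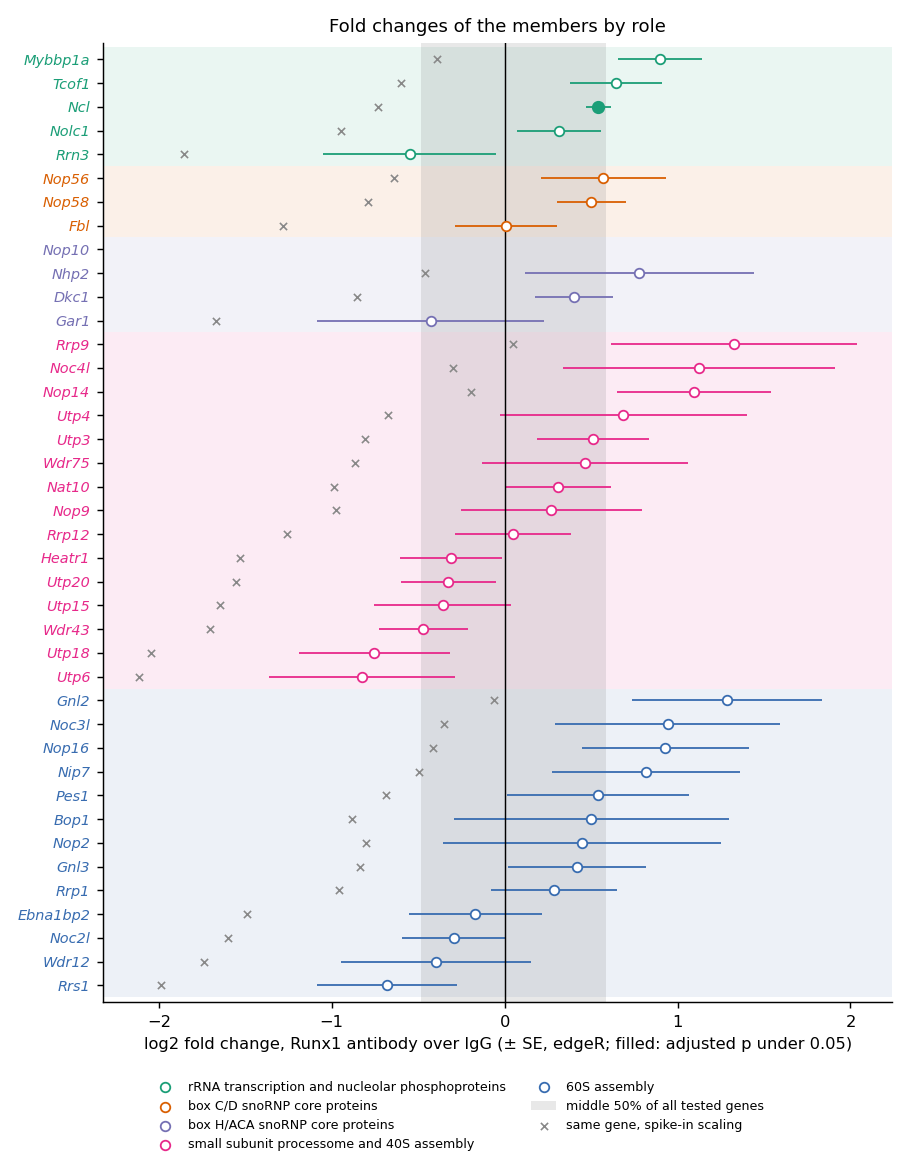
Log2 fold change (Runx1 antibody over IgG, ± SE, edgeR) of the 39 tested genes by role, with the middle 50% of all tested genes as a grey band and the spike-in scaled value of each gene as a cross. Ncl is the only filled point (adjusted p = 0.0240), the small subunit genes run from -0.82 to 1.32, and the spike-in crosses lie below 0 for all but Rrp9.

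The 13 factors of large subunit assembly had a median of 0.45, with 9 above 0 and 4 below. Gnl2, a nucleolar GTPase that acts on the large subunit precursor before export, stood highest, at 39.99 and 72.1 CPM in the Runx1 libraries against 29.1 and 15.7 in the IgG libraries. The groups did not overlap, although each pair was widely spaced (log2 fold change 1.29 ± 0.55, edgeR adjusted p = 0.335). Its relative Gnl3, which encodes nucleostemin, a protein abundant in stem and progenitor cells, stood at 0.42 ± 0.40. Rrs1, which helps to load the 5S ribosomal RNA particle, stood lowest, at 39.4 and 48.2 against 78.1 and 59.6 CPM, with the Runx1 libraries below (-0.68 ± 0.40, edgeR adjusted p = 0.510). Of the NOC proteins, which form dimers along the large subunit pathway, Noc2l stood at 98.5 and 157 against 163 and 145 CPM, overlapping (-0.30 ± 0.30), and Noc3l at 0.94 ± 0.65. The PeBoW complex, which is needed to process the large subunit precursor, had Pes1 at 0.54 ± 0.53, Bop1 at 0.50 ± 0.80 and Wdr12 at -0.40 ± 0.55, all with overlapping groups. All 3 were above 0 after the length and GC correction (Wdr12 at 0.17). Without IgG replicate 1 Wdr12 was at 0.08, and without IgG replicate 2 Bop1 was at -0.08. Rrp1 stood at 152 and 312 against 142 and 234 CPM. Its replicates differed more than its groups did, and 0.28 ± 0.37 became -0.36 without Runx1 replicate 2. Nop2, the methyltransferase of large subunit ribosomal RNA, had the widest Runx1 pair of the tested members on a log scale, at 11.3 and 83.2 CPM. Its value of 0.45 ± 0.80 ran from -1.65 without Runx1 replicate 2 to 1.23 without Runx1 replicate 1. The remaining 3 were Nop16 (0.93 ± 0.48), Nip7 (0.82 ± 0.54) and Ebna1bp2 (-0.17 ± 0.39).

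Replicates of a single antibody also differed. On log2(CPM + 0.5), the median gap between replicates over the 39 members was 0.39 with the Runx1 antibody and 0.48 with IgG, against 0.58 and 0.48 over all tested genes. Among tested members the widest gaps were 2.82 for Nop2 in the Runx1 pair and 2.72 for Noc4l in the IgG pair. Across the 12 alternative ways of processing other than the spike-in scaling, 21 of the 27 members above 0 kept their sign in each, as did 8 of the 12 below 0. Leaving out a library moved the value of 34 of the 39 by more than 1.5 times in at least 1 case and changed the sign of 9, the exceptions to the first being Ncl, Mybbp1a, Nip7, Rrs1 and Utp18. Among members with separate groups, Dkc1 was 0.20 without Runx1 replicate 1, Nolc1 0.15 without IgG replicate 1, Utp3 0.24 without Runx1 replicate 2 and Wdr43 -0.19 without IgG replicate 2. Utp20, whose groups overlapped, was -0.02 without IgG replicate 2.

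**Figure D3:**
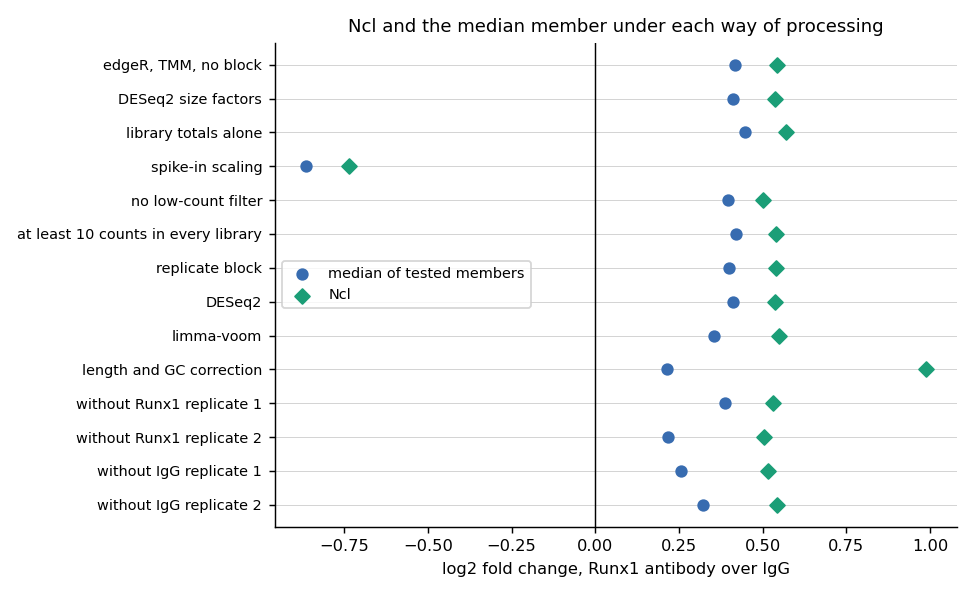
Log2 fold change of Ncl (diamonds) and the median over tested members (circles), Runx1 antibody over IgG, under each way of processing, 1 per line. Ncl stays between 0.50 and 0.99 and the median member between 0.21 and 0.45, except under the spike-in scaling, where they stand at -0.73 and -0.86.

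Transcript length and GC content varied together with the fold change among the members much as among all genes. Over the 39 tested members, the log2 fold change had a Pearson r of -0.24 (Spearman rho -0.24) with the log2 length of the annotated transcript, and r was -0.24 (rho -0.29) over 10679 tested protein-coding genes. With GC content r was 0.22 (rho 0.19) for members and 0.22 (rho 0.26) for all. These are descriptions across genes, which share the same 4 libraries and their depth and are not independent replicates. The members' transcripts had a median length of 2911 bases and a GC content of 50.2%, against 3307 bases and 50.0% for all tested protein-coding genes. After the correction for both, the median of the members was 0.21 and that of all tested genes 0.0048, and Ncl stood at 0.99. That larger value for Ncl, and 1.04 for Nop58, used annotated transcripts of 8202 and 9507 bases, most of which is 3′ UTR. Whether such long forms were present in these cells was not tested. The small subunit genes of greatest length, Heatr1 (6780 bases) and Utp20 (8821 bases), moved to -0.039 and 0.017.

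**Figure D4:**
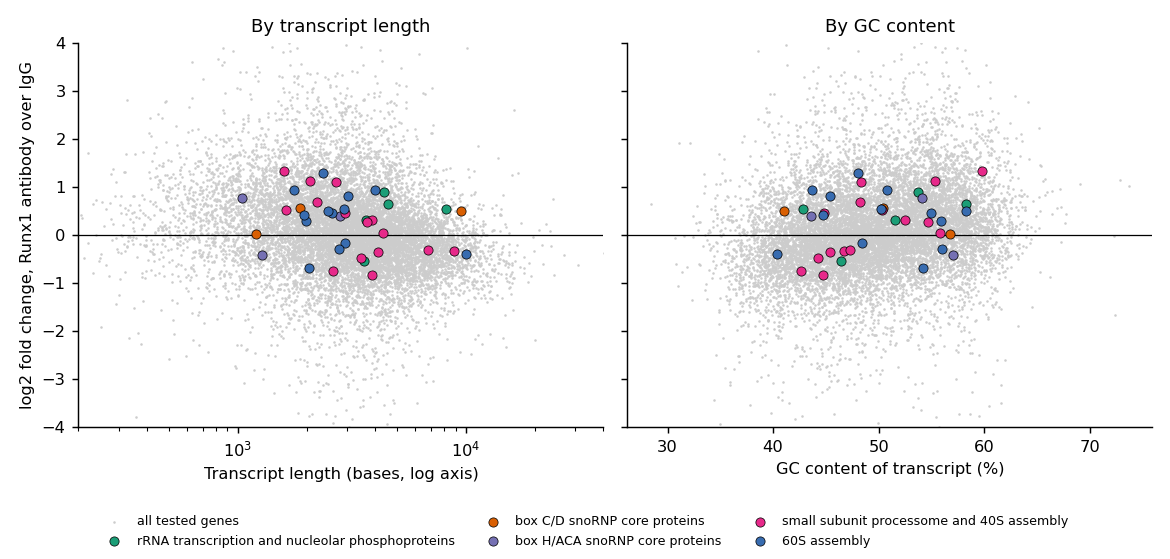
Log2 fold change (Runx1 antibody over IgG) against transcript length (log axis) and GC content for all tested genes (grey) and the 39 tested members (coloured by role). For length r was -0.24 and for GC content 0.22, both over the 39 members and over the 10679 protein-coding genes among the grey points. 71 genes beyond 4 log2 units and 75 beyond the length axis are not drawn.

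Many nucleolar proteins carry lysine-rich and acidic tracts, whose codons are rich in A and G. The coding sequences of the tested members held a median of 27.6% A, against 25.7% for all tested protein-coding genes, with 35.8% in Nop58, 35.7% in Ncl and 34.6% in Gnl3. A run of at least 8 A was present in 2 of 39 members (5.13%) and in 357 of 10679 genes (3.34%). The run in Nolc1, at bases 1594 to 1601 of the coding sequence, is shown in capitals with 30 bases on each side, as an example of such a tract.
Nolc1, coding bases 1564 to 1631: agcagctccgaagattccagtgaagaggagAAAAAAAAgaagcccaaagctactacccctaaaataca
Nolc1 had no overlap between antibodies but a small difference (0.31 ± 0.25). The other member with such a run, Tcof1 (9 A), stood at 0.64 ± 0.27, also without overlap, and edgeR called neither. In Ncl the longest A run of the coding sequence is 6. Whether A runs bear on these values was not tested. Coding A content had an r of 0.05 (rho 0.07) with the log2 fold change over the 39 members.

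Promoters of ribosome assembly genes are known targets of MYC, which binds the E-box CACGTG. RefSeq promoter windows (GRCm38.p6, 250 bases before to 50 after the start) were found for 33 of the 40 members. The E-box, which reads the same on both strands, was in the window of 8 of the 33 (24.2%), against 11.8% of 8712 tested genes with a window and 8.09% of 27025 genes in all. Those 8 were Mybbp1a, Nop2, Pes1, Rrn3, Utp4, Utp18, Utp20 and Wdr43, whose fold changes lay on both sides of 0, from -0.75 to 0.90. The last 100 bases before the start are shown for the 3 in which the E-box, in capitals, falls within them.
Nop2 (chr6:125131783-125131882, GRCm38.p6, plus strand): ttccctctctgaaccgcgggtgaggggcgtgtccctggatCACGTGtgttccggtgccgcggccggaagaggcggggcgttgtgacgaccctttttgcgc
Rrn3 (chr16:13780599-13780698, GRCm38.p6, plus strand): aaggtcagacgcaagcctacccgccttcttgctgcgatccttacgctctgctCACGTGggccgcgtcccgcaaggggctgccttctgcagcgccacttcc
Utp18 (chr11:93885767-93885866, GRCm38.p6, minus strand): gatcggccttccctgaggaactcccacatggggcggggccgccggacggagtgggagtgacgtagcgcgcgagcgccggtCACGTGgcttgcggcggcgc
The E-box shown starts 60, 48 and 20 bases before the start site in Nop2, Rrn3 and Utp18. The core letters bound by RUNX proteins, TGTGGT or ACCACA on either strand, were in the windows of 3 of 33 members (9.09%), Heatr1, Nop56 and Pes1, against 14.4% of tested genes and 18.9% of all. Those 3 members stood at -0.31, 0.57 and 0.54. A match to so few letters describes the sequence and says nothing of binding.

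The rest of the pathway was read from a list of 108 other ribosome biogenesis genes, of which 104 were tested. By edgeR 0 rose and 0 fell, where 0.306% and 0.339% of all tested genes did. Without adjustment, 16 had a p under 0.05 and a higher level and 1, the large ATPase Mdn1, a lower one (-0.46 ± 0.15). Over all tested genes these shares were 6.88% and 7.35%. With DESeq2 9 were higher and 0 lower (1.98% and 2.77% of all genes), and with limma-voom 3 and 0 (0.823% and 0.968%). Of the 104, 82 were above 0 and 22 below, where 51.5% of all tested genes were above 0. The median log2 fold change was 0.36, beside 0.027 for all tested genes, or -0.89 under the spike-in scaling, beside -1.25. Lyar, a nucleolar protein of proliferating cells, had the smallest p, at 156 and 164 CPM against 64.8 and 60.03, with a wide gap between the pairs (1.33 ± 0.29, edgeR adjusted p = 0.0897). Npm1, the abundant nucleolar chaperone nucleophosmin, stood at 1153 and 1103 against 731 and 792 CPM (0.54 ± 0.12, edgeR adjusted p = 0.0948), the same log2 value as Ncl to 2 decimals. Ruvbl2, an ATPase that assembles box C/D snoRNPs, stood at 116 and 75.2 against 28.9 and 20.5 CPM, both Runx1 libraries being higher (1.92 ± 0.43, edgeR adjusted p = 0.0987). Nsa2, a large subunit assembly factor, followed at 160 and 144 against 52.8 and 66.9 CPM (1.32 ± 0.30, edgeR adjusted p = 0.105). These 4 were all called by DESeq2 (DESeq2 adjusted p from 0.00238 to 0.00509). Within this list the other factors of the small subunit had a median of 0.58 over 32 genes, above the 0.27 of the 15 members of that role, and this difference was not tested. The RNA polymerase I and MYC list had a median of 0.15 over 15 genes, and the exosome list 0.14 over 13.

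Markers of other cell types were read beside these values. All 6 tested erythroid markers had both Runx1 libraries above both IgG libraries (median 0.85). The whole list of 7, untested included, summed to 849 to 851 CPM with the Runx1 antibody and 450 to 482 with IgG. The 4 tested neural markers of 6 were above 0 (median 0.84), and 2 of these had overlapping groups. All 6 neural markers, untested included, summed to 131 to 149 against 73.3 to 99.4 CPM. Not tested were Neurog2, at 0 and 0 counts against 6 and 8, and Sox1, at 0 and 3 counts against 49 and 3. Over all tested genes 51.5% were above 0, and 24.1% had both Runx1 libraries above both IgG libraries. Endothelial, haematopoietic and mesenchymal lists had medians of 0.09, 0.01 and 0.05. Their genes ranged from -0.81 to 0.49, from -0.61 to 0.79 and from -0.83 to 1.26. By edgeR 0 of the 27 tested marker genes were called. At an unadjusted edgeR p under 0.05, 4 were above and 2 below, the latter being Tek (-0.81 ± 0.30) and Prrx1 (-0.83 ± 0.27). DESeq2 called 2 globins (Hbb-y and Hba-x) and limma-voom 0. After the length and GC correction the erythroid median was 0.47, with 6 of 6 above 0, and the neural median 0.61, with 3 of 4 above 0. Under the spike-in scaling 5 of the 6 erythroid and all 4 neural genes were below 0. The part of erythroid or neural RNA in the members' values was not tested. In these bulk RIP-seq libraries, fewer cells of a type, less RNA per cell and less recovery on the beads cannot be told apart.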

How the data were processed

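RIP-seq libraries of sorted cells were compared, 2 with the Runx1 antibody and 2 with IgG, grouped by sample titles. The deposited table holds whole-number counts for each Ensembl gene and library, not normalized. The submitters' processing notes name mm10 and the tools Salmon 1.1.0, STAR 2.7.3a and Trimmomatic 0.36, without their roles. The sources used here do not give the annotation or strand setting, so genes whose exons overlap cannot be told apart. GENCODE M21 named 55480 of 55573 identifiers, while the 92 spike-in rows entered neither the totals nor the tests. Each gene was represented by a complete coding transcript in CCDS where it had one.

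The gene test was the quasi-likelihood test of edgeR 4.0.16 (R 4.3.3, TMM, filterByExpr with a minimum count of 10, two-sided, no block) over 12401 genes, with Benjamini-Hochberg adjustment at 0.05. Standard errors come from the test statistic. Alternatives also covered scaling to size factors, totals or spike-ins, the filter, a replicate block, a length and GC correction, and each library left out. DESeq2 1.42.0 and limma-voom (limma 3.58.1) were alternatives. Near-identical copies were sought with blastn 2.17.0. The gene test was tested on simulated data. Members and lists were chosen with earlier results of these data known. The rule for values per library took members called, the 14 with the largest mean CPM, the 4 highest and 4 lowest fold changes and those not tested, and in the wider list the 4 smallest p. Runx1, Cbfb, Pecam1 and Cdh5 served as identity checks. Floors of 3 counts cover counting error only, since PCR reads without molecular identifiers are not independent molecules. One marker gene is not reported here.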

Additional observations from a re-analysis of the deposited data

Results flagged for a closer look

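The spike-in RNAs, which lie outside the gene test, were more abundant in the Runx1 libraries, at 356 and 378 CPM (relative to gene counts) against 129 and 175 CPM with IgG, a ratio of means of 2.42. They rest on 596, 713, 494 and 434 counts. At which step they were added was not known here, and what sets the ratio was not tested.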

How the results depend on the processing

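Ncl was called higher in 11 of the 13 alternatives. It was not called with a replicate block (0.54, adjusted p = 0.0753), and over the alternatives other than the spike-in scaling its adjusted p ran from 2.76e-07 to 0.0753. Deviations of same-numbered libraries from their group means were nearly unrelated (r of 0.0044 over 12401 genes). With 2 libraries per antibody this is a single value, and it cannot show whether the replicate numbers pair the libraries. The block left 0 members and 2 genes higher and 0 genes lower. Spike-in scaling gave 0 members higher and 14 lower, 13 other ribosome biogenesis genes lower, and 19 and 3914 genes higher and lower. It reversed the median member (-0.86) and the summed level (-0.89), and of the 27 members above 0 only 1 stayed above 0. Of those that changed sign, Ncl (-0.73, edgeR adjusted p = 0.0467), Fbl (-1.28) and Rrp12 (-1.26) were called lower. Relative to the median of all tested genes under that scaling, Ncl stood at 0.52. DESeq2 called 2 members and 9 other biogenesis genes higher, with 246 genes higher and 344 lower. Limma-voom called 3 other biogenesis genes higher, with 102 genes higher and 120 lower. Without a filter there were 6 other biogenesis genes higher, with 224 and 325 genes, and with 10 counts in every library 5, with 125 and 160. Length and GC correction gave a median of 0.21, and 26 and 10 genes. With each library left out, members higher ran from 1 to 2, other biogenesis genes higher from 0 to 5, the median from 0.22 to 0.39, and genes from 94 to 248 higher and 80 to 352 lower. The causes were not tested. TMM sizes for the summed level (0.39) were chosen after seeing the data. What a greater depth would add was not tested. DESeq2 gave no adjusted p for 10 members.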
